A study of Xenopus laevis and Petromyzon marinus with 21 samples.

Results

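Cadherins are calcium-dependent adhesion receptors that span the cell membrane and bind partner molecules on the neighbouring cell. The classical cadherins carry a cytoplasmic tail that holds p120 catenin and beta-catenin and so reaches the actin cytoskeleton, while protocadherins have a different tail and often guide cell sorting and movement. In vertebrate embryos the ectoderm that becomes epidermis keeps E-cadherin, the neural plate makes N-cadherin, and neural crest cells change their cadherins before they leave the epithelium. In the frog blastula, most adhesion rests on a cadherin supplied by the mother, the product of cdh3 (known in the frog as C-cadherin or EP-cadherin).

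The genes described here are the rows of the Xenopus laevis count table whose name starts with cdh or pcdh followed by a digit. There are 61 of them among 49282 rows: 39 cadherin and 22 protocadherin rows. Xenopus laevis is an allotetraploid frog with long (L) and short (S) versions of its chromosomes, so most genes have 2 copies. The 61 rows carry 33 gene names, of which 28 have both copies. No row is named cdh4 or pcdh19.

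RNA was sequenced from animal caps, the pluripotent roof of the blastula, cut from wild-type embryos and cultured in saline. Control caps were untreated, and left alone such caps form epidermis. Induced caps came from embryos given mRNA for wnt8a and chordin by injection when they had 2 cells, a Wnt ligand and a BMP antagonist that together turn caps towards neural crest. Both kinds were taken at stages 9 (blastula), 13 (neural plate) and 17 (neural fold), with 3 libraries in each of the 6 groups, 18 in all. No group received one mRNA alone or a control mRNA, so what either factor does alone, and what the injection does, cannot be told apart here. The labels name no separate clutches, so the p-values rest on the spread between these libraries, and that spread may be technical.

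Libraries held 15596247 to 23292078 counts in genes. They are called a, b and c after the last letter of their column. Libraries with the same letter deviated together. The tests below have no term for the letter. A fit with the letter as a block is cited beside some of the calls it changes, not all, so other calls may depend on the letter too. Markers went with the labels. The summed level of 22 epidermal marker rows rose in control caps from 675 ± 54.2 CPM (counts scaled to a common library size; SD, n = 3) at stage 9 to 53900 ± 7820 at stage 17, and was 22300 ± 4810 in induced caps at stage 17. The neural crest list was at 311 ± 13.7 CPM in control and 5880 ± 494 in induced caps at stage 17. The neural plate list was also higher in induced caps. Its means at stage 13 were 94.9 CPM in control and 827 CPM in induced caps. At stage 17 it was at 55.3 ± 12.3 CPM in control and 578 ± 115 in induced caps. Induced caps thus still carried epidermal transcripts, and in bulk RNA fewer cells of a type and less RNA per cell cannot be told apart. The mesoderm and muscle list was uneven: in induced caps it summed to 7.0, 125 and 11.8 CPM in libraries a, b and c of stage 13, with 22 rows above 3 counts in the group, and to 7.91, 6.83 and 51.5 CPM at stage 17. In control caps it lay between 1.48 and 8.67 CPM at these stages. In the stage 13 library b, the myogenic gene myf5.L stood at 10.1 CPM and actc1.S, a muscle actin, at 25.9 CPM.

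Of the 61 members, 37 had enough counts to be tested (16 cadherin and 21 protocadherin rows), and 24 had not. A member passed that filter if at least 3 libraries exceeded about 0.526 CPM. For this cut alone, CPM was taken on plain library totals, without the scaling used for the levels given here. Among the 37, 11 exceeded it in all 18 libraries, and 4 only in induced caps of stages 13 and 17. Those 4 are cdh7.L, cdh20.L, pcdh12.S and pcdh8l.S. They could pass only by being high there, so their calls against controls or the blastula are descriptions and not independent of the filter. The members cdh1.L, cdh20.S and pcdh8.2.S exceeded the cut in other groups too, but reached 3 libraries only with induced caps of stages 13 and 17. For cdh5.L this held for induced caps of stage 13. Calls of these members that rest on those groups are descriptions as well. Likewise, cdh7.S, cdh15.L, pcdh9.S and pcdh17.L exceeded the cut only in libraries of stage 9, so their calls against the blastula are descriptions too. The counts and medians below include all of these members, describe the tested members and are not evidence on the family. All 24499 genes that passed were tested together with edgeR's quasi-likelihood test and Benjamini-Hochberg adjustment, and "higher" or "lower" below means an adjusted p under 0.05. Levels are CPM scaled by library and not corrected for transcript length, so they are compared between groups and not between genes.

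At the blastula stage 1 member passed between the 2 kinds of caps in the main fit, which has no term for the letter. In a fit of that stage alone with the letter as a block, 2 passed. Protocadherin pcdh9.S was higher in induced caps, and the other 36 tested members did not pass. Over all genes tested at this stage, 0.347% were higher and 0.0653% lower. By stage 13 the induced caps had 17 members higher and 6 lower, beside 18.9% and 21.4% of all genes, and 14 members did not pass. At stage 17 there were 18 higher and 7 lower, beside 22.2% and 22.8%, and 12 did not pass. The median log2 fold change of the 37 was 1.17 at stage 13 and 1.47 at stage 17, where the median of all genes was 0.01 and 0. Among them, 12 members were higher at both stages, including both copies of cdh2, cdh3, cdh20 and pcdh8l. Those lower at both were cdh1.S, pcdh1.L, pcdh1.S, pcdh7.S and pcdh10.L.

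**Figure D1:**
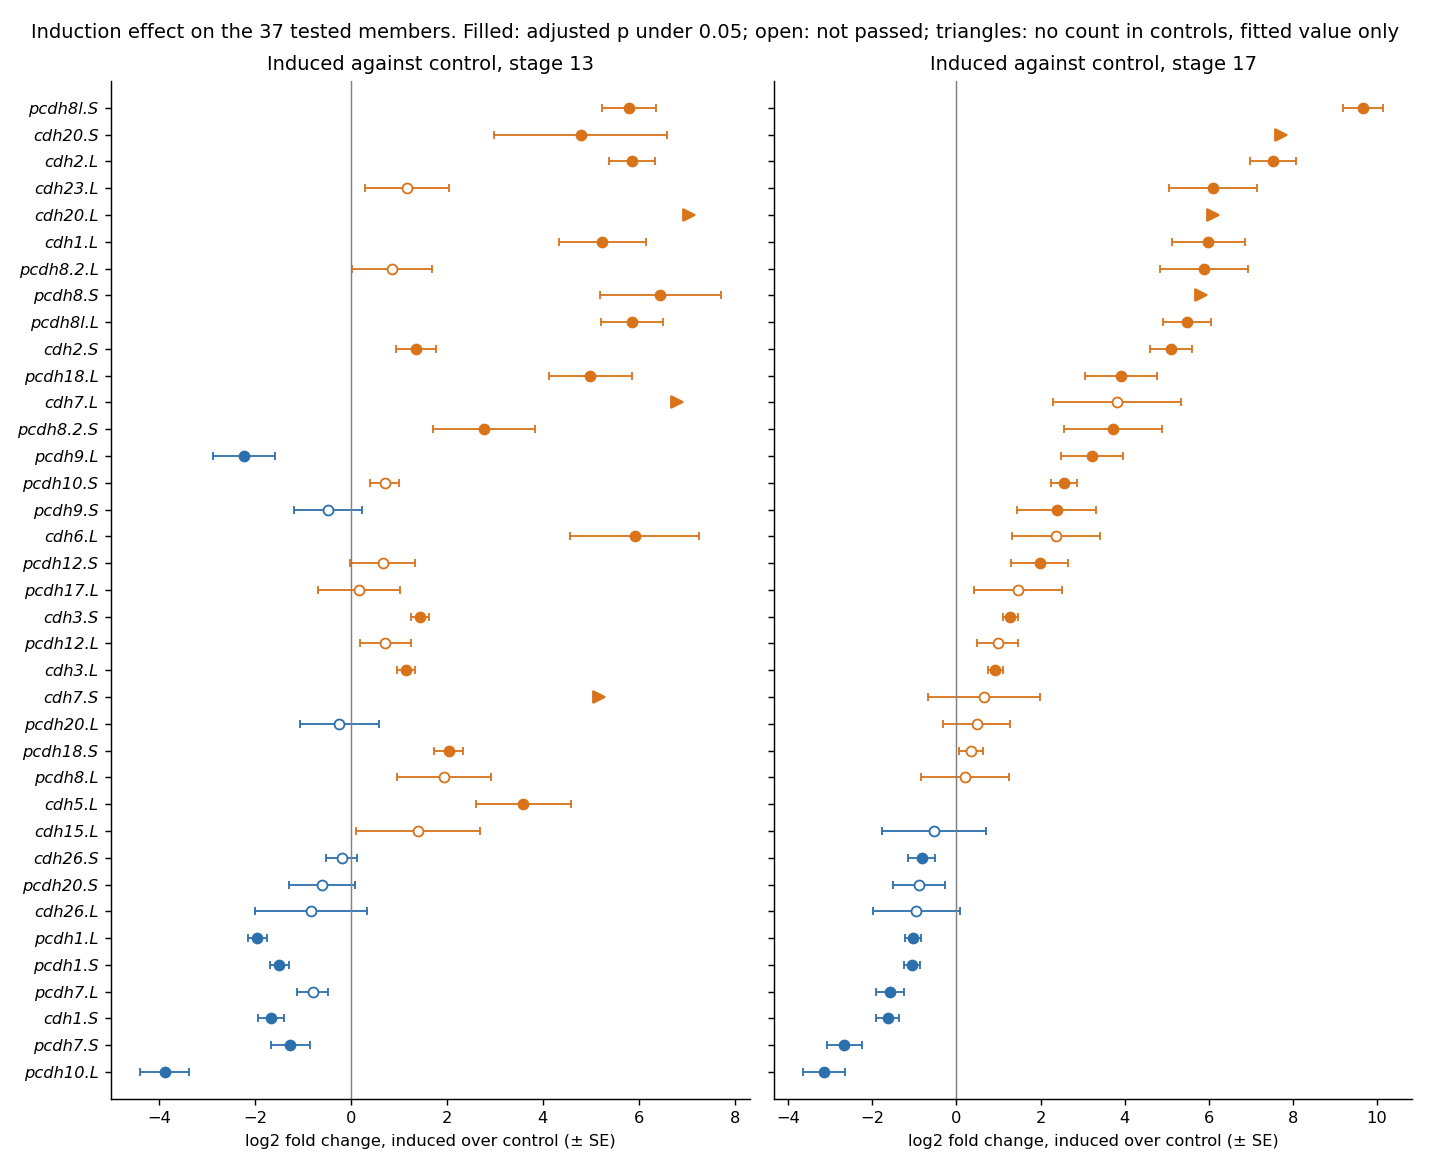
Log2 fold change (induced over control, ± SE from the edgeR fit) of the 37 tested members at stage 13 (left) and stage 17 (right), sorted by stage 17. Filled symbols passed at an adjusted p under 0.05; triangles mark members with no count in the 3 control libraries, whose fitted value is no measured fold; cdh5.L had no count in either group at stage 17 and is not drawn there.

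Each member was also compared with the blastula controls. In control caps 15 members rose and 6 fell by stage 13, beside 36.2% and 35.1% of all genes, and 13 rose and 10 fell by stage 17, beside 37.6% and 36.4%. In induced caps 23 rose and 8 fell by stage 13, beside 35.8% and 35.4%, and 20 rose and 7 fell by stage 17, beside 37.3% and 35.8%. These 4 comparisons share the same 3 blastula libraries. Scaling by library totals in place of TMM lowered the median log2 change of all genes against the blastula by 0.51 to 0.79 and raised that of the induction effect by 0.08 at stage 13 and 0.23 at stage 17, so a change of that size against the blastula depends on the scaling. To give the overall scale, all 61 rows together stood at 696 ± 71.9 CPM in blastula controls, 2770 ± 222 in stage 17 controls and 1990 ± 85.7 in stage 17 induced caps.

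Among the classical type I cadherins, cdh1, cdh2 and cdh3 each followed a course of their own. The maternal cadherin cdh3 held most of the family's counts in the blastula, 54.4%, 53.9% and 57.2% in the 3 control libraries. In control caps its share fell to 5.48%, 4.71% and 5.07% at stage 17. E-cadherin, cdh1, took 56.2%, 57.1% and 57.2% of the family's counts in those same libraries, from 2.82% to 5.7% at stage 9. In induced caps neither change went as far. The share of cdh3 was 27.2% to 36.2% at stage 13 and 12.1% to 17.6% at stage 17, and that of cdh1 was 24.1% to 28.9% at stage 17. N-cadherin, cdh2, held 4.14% to 8.04% of the counts in stage 17 induced caps and at most 0.0618% in stage 17 controls. Shares are not corrected for length, but they do not depend on how libraries were scaled. They do depend on the family's total, which was 696 ± 71.9 CPM in blastula controls and 1660 ± 31.6 in stage 13 induced caps. A share can therefore fall where the level does not. With copies summed, cdh3 stood at 385 ± 50.4 CPM in blastula controls and 527 ± 84.2 in stage 13 induced caps. In stage 17 controls it stood at 141 ± 15.2 CPM. For the shares of cdh1, cdh2 and cdh3, induced and control caps did not overlap at stage 17. The same held for cdh1 and cdh3 between controls of stages 17 and 9. In each of these contrasts the exact two-sided permutation test of the shares gave p = 0.1, the smallest value that 3 against 3 libraries allow. It was not run on CPM levels.

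**Figure D2:**
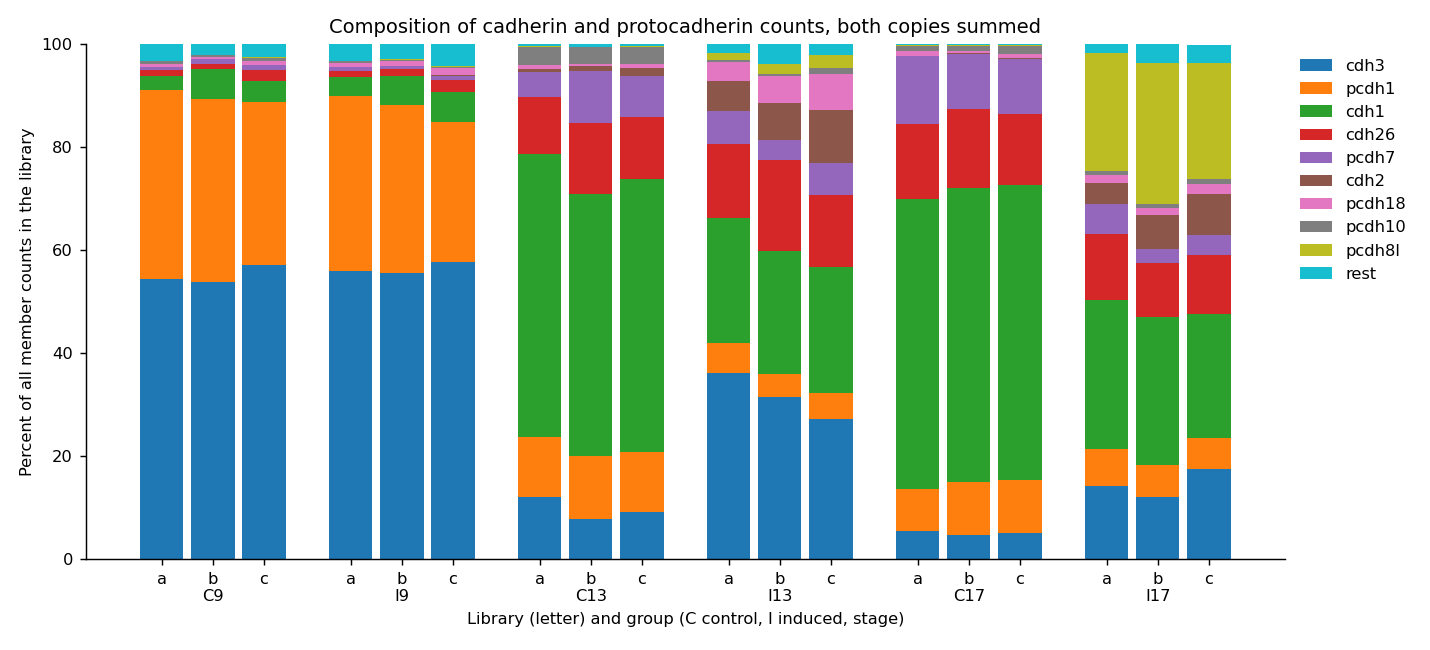
Percent of all cadherin and protocadherin counts in each of the 18 libraries (bars a, b, c per group; C control, I induced, number the stage), with both copies of a gene summed and not corrected for length. Cdh3 and pcdh1 fill most of each stage 9 bar, cdh1 is above 50% in controls of stages 13 and 17, and pcdh8l holds 22.5% to 27.3% in stage 17 induced caps.

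For cdh1, nearly all counts came from the S copy. In blastula controls cdh1.S stood at 17.2, 39.7 and 32.1 CPM. It reached 1210, 1310 and 1180 CPM in control caps of stage 13 and 1610, 1670 and 1440 CPM at stage 17. Every later control library was thus far above every blastula library, with a log2 rise of 5.38 ± 0.32 (SE) by stage 13 and 5.73 ± 0.32 by stage 17. In induced caps it reached 402, 383 and 390 CPM at stage 13 and 587, 502 and 435 CPM at stage 17. E-cadherin RNA therefore also rose in induced caps, by 3.72 ± 0.29 and 4.10 ± 0.30 on the log2 scale, but to a lower level than in controls. The induction effect was -1.66 ± 0.27 (adjusted p = 0.00014) at stage 13 and -1.63 ± 0.27 (adjusted p = 0.00013) at stage 17. The effect of induction did not differ detectably between these 2 stages (difference 0.03 ± 0.37, adjusted p = 1).

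The L copy of cdh1 moved the other way. In control caps cdh1.L was at or below 1.29 CPM in all 9 libraries. In induced caps it stood at 8.44, 13 and 9.38 CPM at stage 13 and at 15.1, 66.9 and 26.9 CPM at stage 17, above every control library at each stage. The log2 effect was 5.24 ± 0.91 at stage 13 (adjusted p = 0.00025) and 5.99 ± 0.87 at stage 17 (adjusted p = 4.1e-05). The library at 66.9 CPM stood apart, and the effect at stage 17 lay between 5.25 and 7.45 when any 1 library was left out. The copies of cdh1 were thus called in opposite directions at both stages. Cdh1.L met the filter only with the induced libraries of stages 13 and 17, so its calls here are descriptions. In the RefSeq annotation each cdh1 copy has the cdh3 copy of the same chromosome as its next protein-coding gene. Both copies of cdh3 were higher in induced caps, while of cdh1 only the L copy was. Any link between these neighbours was not tested.

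For N-cadherin, the cadherin of the neural plate, both copies were higher in induced caps. The neural plate marker list was higher there too, and its part in the cdh2 results was not tested. The L copy was near absent from controls: cdh2.L stood at 0.674, 0.492 and 0.195 CPM in stage 17 controls and at 61.6, 95.2 and 101 CPM in induced caps. The log2 effect was 5.86 ± 0.48 at stage 13 (adjusted p = 2.7e-07) and 7.53 ± 0.54 at stage 17 (adjusted p = 4.7e-08). The S copy behaved differently in controls. There cdh2.S rose to 13.8, 19.7 and 33.1 CPM at stage 13 and was back at 1.1, 0.985 and 1.24 CPM at stage 17, a log2 fall of 4.32 ± 0.50 (adjusted p = 1.1e-05). In induced caps cdh2.S stood at 51.7, 36.0 and 82.0 CPM at stage 13 and at 24.7, 36.3 and 53.1 CPM at stage 17, with no detectable difference (-0.57 ± 0.41, adjusted p = 0.29). The induction effect on cdh2.S was therefore 1.35 ± 0.42 at stage 13 and 5.10 ± 0.51 at stage 17, and the change between them, 3.75 ± 0.63, passed (adjusted p = 0.0021). At stage 13 the call for cdh2.S was lost when control library a or b or induced library c was left out (adjusted p = 0.074, 0.063 and 0.082). The count ratio of cdh2 to cdh1, both copies summed and with no length correction, was 0.143, 0.231 and 0.333 in stage 17 induced caps, against 0.0011, 0.000883 and 0.000994 in controls.

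The maternal cadherin cdh3 fell more in control than in induced caps. In blastula controls cdh3.L stood at 181, 211 and 247 CPM. At stage 17 it was at 114, 90.3 and 84.7 CPM in controls and at 185, 154 and 209 CPM in induced caps. The control fall against the blastula was 1.14 ± 0.18 on the log2 scale in size (adjusted p = 3.8e-05), while the induced caps did not pass (-0.22 ± 0.18, adjusted p = 0.28). Library totals lowered the median of all genes in the latter comparison by 0.51, so the lack of a call may depend on the scaling. At stage 13 the induced caps held 429, 371 and 317 CPM of cdh3.L, 0.80 ± 0.18 above the blastula on the log2 scale. With library totals as the scale that rise was 0.09 (adjusted p = 0.65). The induction effect on cdh3.L was 1.15 ± 0.18 at stage 13 (adjusted p = 0.00012) and 0.92 ± 0.18 at stage 17 (adjusted p = 0.00071). The S copy was also higher in induced than in control caps but differed against the blastula. In controls cdh3.S fell from 158, 166 and 191 CPM in blastula controls to 43.1, 47.6 and 43.0 CPM at stage 17 (-1.95 ± 0.18, adjusted p = 9.4e-08). In stage 17 induced caps cdh3.S held 112, 84.8 and 129 CPM, lower than the blastula as well (-0.67 ± 0.18, adjusted p = 0.003), and at stage 13 it did not pass against the blastula (-0.15 ± 0.18, adjusted p = 0.46). Its induction effect was 1.44 ± 0.18 at stage 13 and 1.28 ± 0.18 at stage 17 (adjusted p = 1.3e-05 and 3e-05). The groups did not overlap for either copy at either stage.

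**Figure D3:**
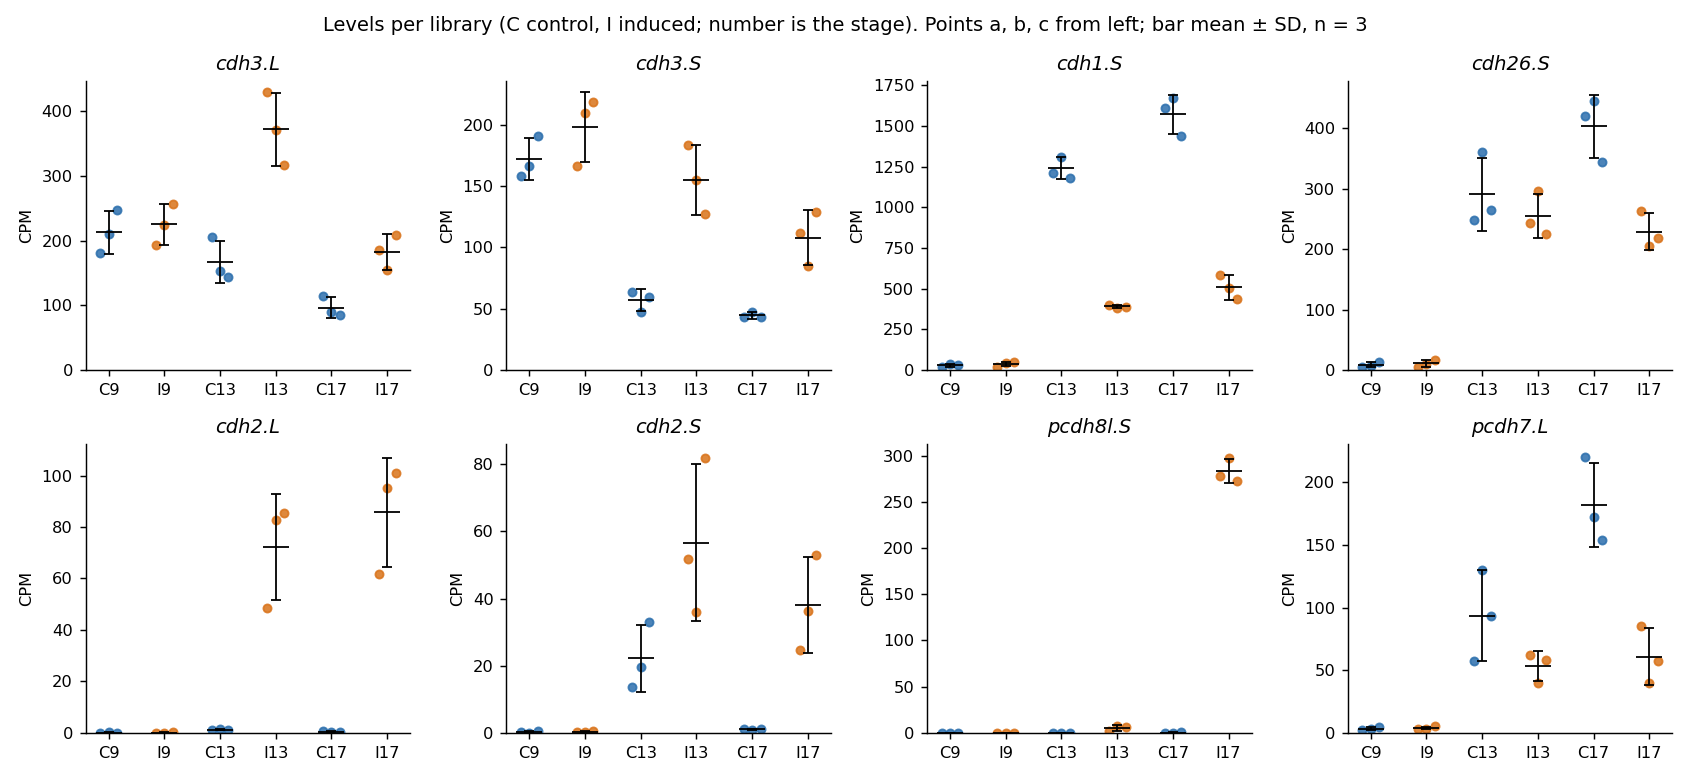
CPM in every library for 8 members (points a, b, c from left; black bar and whiskers mean ± SD, n = 3; C control, I induced, number the stage; each panel has its own scale). The maternal copies cdh3.L and cdh3.S start high, cdh1.S and cdh26.S rise in both kinds of caps, cdh2.L and pcdh8l.S appear in induced caps, cdh2.S is transient in controls, and pcdh7.L is lower in induced caps at stage 17.

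The genes whose course was most like each cadherin were found by Pearson's r over the 18 libraries on log2(CPM + 0.5) with copies summed; the points share 6 groups, so r mainly follows the group means. For cdh1 the closest were the plakin gene eppk1.L (r = 0.995), the keratin gene krt70.S (0.994) and tm9sf3.L (0.994). For cdh2 they were grwd1.L (0.990), mrto4.L (0.987) and mst1.L (0.987). For cdh3 they were cpsf2.S (0.966), the Hes-family gene hes6.1.S (0.957) and smarcd1.L (0.957).

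The type II cadherins, which include the receptors of migrating crest and of regions of the neural tube, were at low levels throughout. Cadherin-20, known in the frog as F-cadherin of the neural tube, stood in induced caps of stage 13 at 5.04, 5.63 and 4.69 CPM for cdh20.S, where controls held at most 0.474 CPM. At stage 17 cdh20.S held 1.51, 0.860 and 1.67 CPM in induced caps and no count in controls, at least 22.5-fold higher against a floor of 3 counts over the group. The copy cdh20.L had 43 and 28 counts in the induced groups of stages 13 and 17 and none in controls, at least 13-fold and 7.89-fold higher. Both copies passed at both stages (adjusted p = 0.013 to 0.046), but the calls for cdh20.S were lost without any 1 of the 6 libraries at stage 13 (adjusted p up to 0.14) and without 5 of 6 at stage 17 (up to 0.088). The stage 17 call for cdh20.L was lost without control library a, b or c or induced library c (up to 0.1). Both copies met the filter only with induced libraries of stages 13 and 17, so these calls are descriptions. Neural plate markers were higher in induced caps of both stages too, and their part in the cdh20 results was not tested. In the blastula cdh20.S came from library c, with 36 of 36 counts (1.59 CPM) in controls and 53 of 55 (2.58 CPM) in induced caps. Against the blastula controls neither copy passed in stage 17 induced caps (cdh20.S 1.35 ± 1.52, adjusted p = 0.43; cdh20.L 2.33 ± 1.26, adjusted p = 0.11).

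Cadherin-6, a type II cadherin of neural fold and crest, was carried mainly by 1 library at each stage. In induced caps cdh6.L stood at 3.27, 10.3 and 3.51 CPM at stage 13, above the control range of 0 to 0.203 CPM, with a log2 effect of 5.91 ± 1.34 (adjusted p = 0.0022). At stage 17 it stood at 0.905, 8.70 and 2.15 CPM against 0.245, 0.985 and 1.04 in controls; the groups overlapped and the effect did not pass (2.36 ± 1.05, adjusted p = 0.078), though it did with the library letter as a block (adjusted p = 0.049). The second copy, cdh6.S, was not tested; it had 21 counts in each induced group and 1 in each control group, ratios of 19.0 (95% counting interval 3.06 to 786) at stage 13 and 17.7 (2.85 to 734) at stage 17. The stage 13 library b, which was highest for both copies, is also the one with the high mesoderm and muscle markers (125 CPM). In library b of stage 17, again highest for both, those markers were at 6.83 CPM; their part in these values was not tested.

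Cadherin-7, found in migrating crest of the chick, and cadherin-11, a cadherin of cranial crest in the frog, were at the edge of detection. In induced caps cdh7.L had 36 counts at stage 13 (at least 10.9-fold above controls, which had none; adjusted p = 0.016, or 0.065 with DESeq2) and 23 at stage 17 against 1 in controls (ratio 19.4, interval 3.16 to 801; adjusted p = 0.065, or 0.021 with the letter as a block). Its homeolog cdh7.S was instead a blastula transcript: it had 109 counts in stage 9 controls and none at stage 13, at least 22.8-fold lower. Induced caps of stage 13 kept 11 counts of cdh7.S, and the call there (adjusted p = 0.043) was lost without any of the 3 control libraries or induced library a or b (adjusted p = 0.072 to 0.11). Cdh11.L was not tested, since 2 of the 18 libraries exceeded the filter, yet its counts lay on one side: 7, 6 and 10 in induced caps of stage 13, 8, 17 and 39 at stage 17, and none in any control library. That is at least 6.94-fold higher at stage 13 and at least 18-fold higher at stage 17. Cdh11.S had 1, 9 and 23 counts in induced caps of stage 17 and none in controls (at least 9.29-fold). Both cdh11 copies were highest in the stage 17 library c, the one with 51.5 CPM of mesoderm and muscle markers; their part in this result was not tested. With no filter on low counts, cdh11.L passed at both stages (adjusted p = 0.0055 and 0.00081). The closest courses to cdh11 over 18 libraries were those of cacnb1.S (r = 0.982), LOC108699412 (0.974) and the junctional adhesion gene jam2.S (0.969).

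Among the other cadherins, cdh26, studied in mammalian epithelia, was prominent in both kinds of caps. The S copy rose from 5.29, 7.51 and 13.4 CPM in blastula controls to 248, 360 and 265 CPM in stage 13 controls and 243, 296 and 226 CPM in stage 13 induced caps. Those last groups overlapped, and induction had no detectable effect on cdh26.S at stage 13 (-0.19 ± 0.32, adjusted p = 0.70). At stage 17 the control libraries held 420, 445 and 344 CPM and the induced libraries 263, 205 and 218 CPM. The difference just passed (-0.82 ± 0.32, adjusted p = 0.049) and did not with library totals as the scale (-0.58, adjusted p = 0.13) or without any 1 of these 6 libraries (adjusted p = 0.055 to 0.16). The L copy stayed below 2 CPM throughout; against the blastula, cdh26.L was lower in stage 13 induced caps (-2.75 ± 1.11, adjusted p = 0.036) while cdh26.S was higher (4.87 ± 0.38, adjusted p = 1.2e-08). The call for cdh26.L was lost without blastula library a or c or induced library a or b (adjusted p = 0.087 to 0.11).

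Cadherin-23, which forms the tip links of hair cells, was present in the blastula and highest in stage 17 induced caps. At stage 9 cdh23.L held 0.399, 1.16 and 2.96 CPM in controls and 0.271, 1.51 and 3.85 CPM in induced caps. In induced caps it stood at 7.60, 5.77 and 4.21 CPM at stage 17, against 0.123, 0.109 and 0 in controls (6.10 ± 1.04, adjusted p = 0.00019). At stage 13 the groups held 0.203 to 1.14 CPM and the effect did not pass (1.17 ± 0.87, adjusted p = 0.32). The change between the stages, 4.92 ± 1.36, passed (adjusted p = 0.035) but was lost without any of 9 of the 12 libraries it rests on (up to 0.085). VE-cadherin, the endothelial cadherin, was at low levels: in the blastula cdh5.L held 0.0442 to 0.742 CPM in controls and 0.193 to 1.09 CPM in induced caps. It stood at 1.70, 1.44 and 1.13 CPM in stage 13 induced caps and at most 0.158 in controls (3.59 ± 0.99, adjusted p = 0.012, or 0.051 without control library c), and had no count in any stage 17 library. Cdh5.L met the filter only with the stage 13 induced libraries, so its call there is a description. M-cadherin of muscle, cdh15.L, did not pass between the kinds of caps at any stage and was at most 1.02 CPM in every library.

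The protocadherin with the strongest course was pcdh8l, known in the frog as PCNS, a protocadherin of neural crest and somites. In induced caps of stage 17, pcdh8l.S stood at 278, 298 and 273 CPM, against 0.245, 0.328 and 0.455 CPM in controls (9.67 ± 0.48, adjusted p = 3.5e-08). At stage 13 it was still low, at 2.16, 7.06 and 6.67 CPM in induced caps, and it had no count in the 6 blastula libraries. The rise from stage 13 to 17 in induced caps was 5.73 ± 0.37 on the log2 scale (adjusted p = 1.2e-06). The L copy came earlier and reached less: pcdh8l.L held 22.0, 24.8 and 35.3 CPM in induced caps of stage 13 and 201, 241 and 157 CPM at stage 17. In controls it was at 3.86, 5.09 and 4.49 CPM at stage 17, a rise of 2.37 ± 0.57 over the blastula (adjusted p = 0.0013). Its induction effect was 5.86 ± 0.65 and 5.48 ± 0.56. PCNS is also a somite gene; at stage 17 the mesoderm and muscle list was at 7.91, 6.83 and 51.5 CPM in libraries a, b and c, and its part in these values was not tested. Over 18 libraries the course closest to pcdh8l was that of tfap2b.S (r = 0.979), a crest transcription factor.

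Paraxial protocadherin, pcdh8, drives cell movements of the gastrula mesoderm. Here pcdh8.S was seen in stage 13 induced caps, at 8.11, 2.45 and 8.54 CPM, against 3 counts over the 3 controls (ratio 95.3, 95% counting interval 32.3 to 465; adjusted p = 0.00095). By stage 17 it had fallen in induced caps to 0, 0.202 and 0.833 CPM (-4.13 ± 1.03, adjusted p = 0.0057). The copy pcdh8.L held 2.55, 0.658 and 3.90 CPM in stage 13 induced caps and 0.236 to 1.08 CPM in controls, which overlap; it did not pass (1.94 ± 0.97, adjusted p = 0.13), though it did with the letter as a block (adjusted p = 0.045). Both copies were lowest in library b, the library with the highest mesoderm and muscle markers. Their neighbour pcdh8.2 did the opposite there. In stage 13 induced caps pcdh8.2.S stood at 0.458, 11.6 and 0.452 CPM, so that 1 library made its call (2.77 ± 1.06, adjusted p = 0.048); without library b the value was -0.39 (adjusted p = 0.79), and with the letter as a block 2.26 (adjusted p = 0.12). Mesoderm and muscle markers were high in that library too, and their part was not tested. Pcdh8.2.S met the filter only with induced libraries of stages 13 and 17, so its calls against controls are descriptions. At stage 17 pcdh8.2.L was plain in all 3 induced libraries, 17.4, 46.3 and 43.6 CPM against 0.0613, 0.0547 and 1.76 in controls (5.88 ± 1.05, adjusted p = 0.00028). In controls pcdh8.2.L had been at 4.4, 9.06 and 4 CPM in stage 13, and the fall to stage 17 passed (-3.25 ± 0.99, adjusted p = 0.016) but not without control library b of stage 13 or a or b of stage 17 (0.056 to 0.066). The copy pcdh8.2.S was also higher at stage 17 (3.72 ± 1.16, adjusted p = 0.016), at 1.69, 1.97 and 4.65 CPM against at most 0.39, and was lost without control library a or b or induced library c (0.053 to 0.067). With pcdh17, these genes lie side by side on chromosomes 2L and 2S in RefSeq, and pcdh17.L did not pass between the kinds of caps at any stage (0.17 ± 0.86 at stage 13 and 1.47 ± 1.04 at stage 17).

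Axial protocadherin, pcdh1, known from the frog notochord, and NF-protocadherin, pcdh7, an adhesion molecule of frog ectoderm, were lower in induced caps. In blastula controls pcdh1.L stood at 88.3, 78.3 and 77.5 CPM. At stage 13 it was at 138, 160 and 151 CPM in controls and at 45.8, 26.1 and 44.3 CPM in induced caps (-1.95 ± 0.20, adjusted p = 1.7e-06). At stage 17 the groups stood at 126, 159 and 139 CPM and at 80.3, 61.8 and 63.4 CPM (-1.04 ± 0.19, adjusted p = 0.00033). For pcdh1.S the effect was -1.49 ± 0.19 and -1.05 ± 0.19 at the 2 stages. Both copies were thus below every control library at both stages. Over time the share of pcdh1 in the family's counts went from 34.6% ± 2.68 in blastula controls to 9.66% ± 1.24 in stage 17 controls and 6.47% ± 0.718 in induced caps. The family's total rose meanwhile, from 696 CPM in blastula controls to 2770 and 1990 CPM. With copies summed, pcdh1 itself stood at 239 ± 10.2, 267 ± 33.1 and 129 ± 20.0 CPM in these 3 groups. In CPM, the control rise of pcdh1.L over the blastula, 0.88 ± 0.19 at stage 13, was 0.09 (adjusted p = 0.69) with library totals as the scale.

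NF-protocadherin rose in both kinds of caps and reached more in controls. From 2.14, 3.34 and 4.37 CPM in the blastula, pcdh7.L reached 220, 172 and 154 CPM in stage 17 controls and 85.2, 39.6 and 57.8 CPM in induced caps (-1.58 ± 0.33, adjusted p = 0.0011). At stage 13 the control libraries spread from 57.7 to 130 CPM and overlapped the induced ones, and the effect did not pass (-0.80 ± 0.33, adjusted p = 0.062). The copy pcdh7.S stood at 156, 143 and 118 CPM in stage 17 controls and at 36.8, 14.2 and 15.2 CPM in induced caps (-2.66 ± 0.42, adjusted p = 9.3e-05). At stage 13 its call (-1.26 ± 0.40, adjusted p = 0.020) was lost without library b of controls (-0.86, adjusted p = 0.13) or of induced caps (-0.99, adjusted p = 0.094), and in the fit of that stage alone with the letter as a block (adjusted p = 0.13). In library a of stage 13 the kinds of caps hardly differed, at 46.1 CPM in controls and 44.3 CPM in induced caps.

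The copies of pcdh10 were called in opposite directions at stage 17. Those of its neighbour pcdh18 had the same call at stage 13, and only its L copy passed at stage 17. For pcdh10, a protocadherin of the delta subgroup, the L copy was the one seen in controls: pcdh10.L rose in control caps to 74.4, 82.4 and 68.7 CPM at stage 13 and stood at 28.7, 22.6 and 36.7 CPM at stage 17; that fall (-1.36 ± 0.46, adjusted p = 0.027) was lost without library a or b of either stage (0.061 to 0.097). In induced caps pcdh10.L was at 2.16, 2.57 and 10.5 CPM and at 3.14, 3.29 and 3.46 CPM, with effects of -3.88 ± 0.51 (adjusted p = 2e-05) and -3.15 ± 0.50 (adjusted p = 9.6e-05). The S copy went the other way at stage 17: pcdh10.S was at 10.6, 11.9 and 14 CPM in induced caps and at 2.51, 2.13 and 1.56 CPM in controls (2.55 ± 0.31, adjusted p = 7.9e-06). At stage 13 the induced effect on pcdh10.S was 0.70 ± 0.30 and did not pass (adjusted p = 0.071), though it did with the letter as a block within each stage (adjusted p = 0.020).

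For pcdh18, also of the delta subgroup, both copies were higher in stage 13 induced caps. The S copy was the more abundant: pcdh18.S held 43.2, 74.6 and 74.1 CPM in induced caps and 18.4, 11.3 and 16.9 CPM in controls (2.04 ± 0.30, adjusted p = 5.3e-05). At stage 17 it stood at 26.0, 24.0 and 27.9 CPM against 25.7, 16.4 and 19.0 CPM, overlapping (0.35 ± 0.29, adjusted p = 0.35). The L copy kept its difference: pcdh18.L was at 17.9, 13 and 39.7 CPM in induced caps of stage 13 and 6.04, 3.85 and 9.69 CPM at stage 17, where controls held at most 1.1 CPM (4.99 ± 0.86 and 3.92 ± 0.86, adjusted p = 0.00025 and 0.0015). Already at stage 9 both copies leaned to induced caps, by 1.08 for pcdh18.L and 1.15 for pcdh18.S on the log2 scale. The induced library was the higher one in all 3 letters, but neither copy passed.

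**Figure D4:**
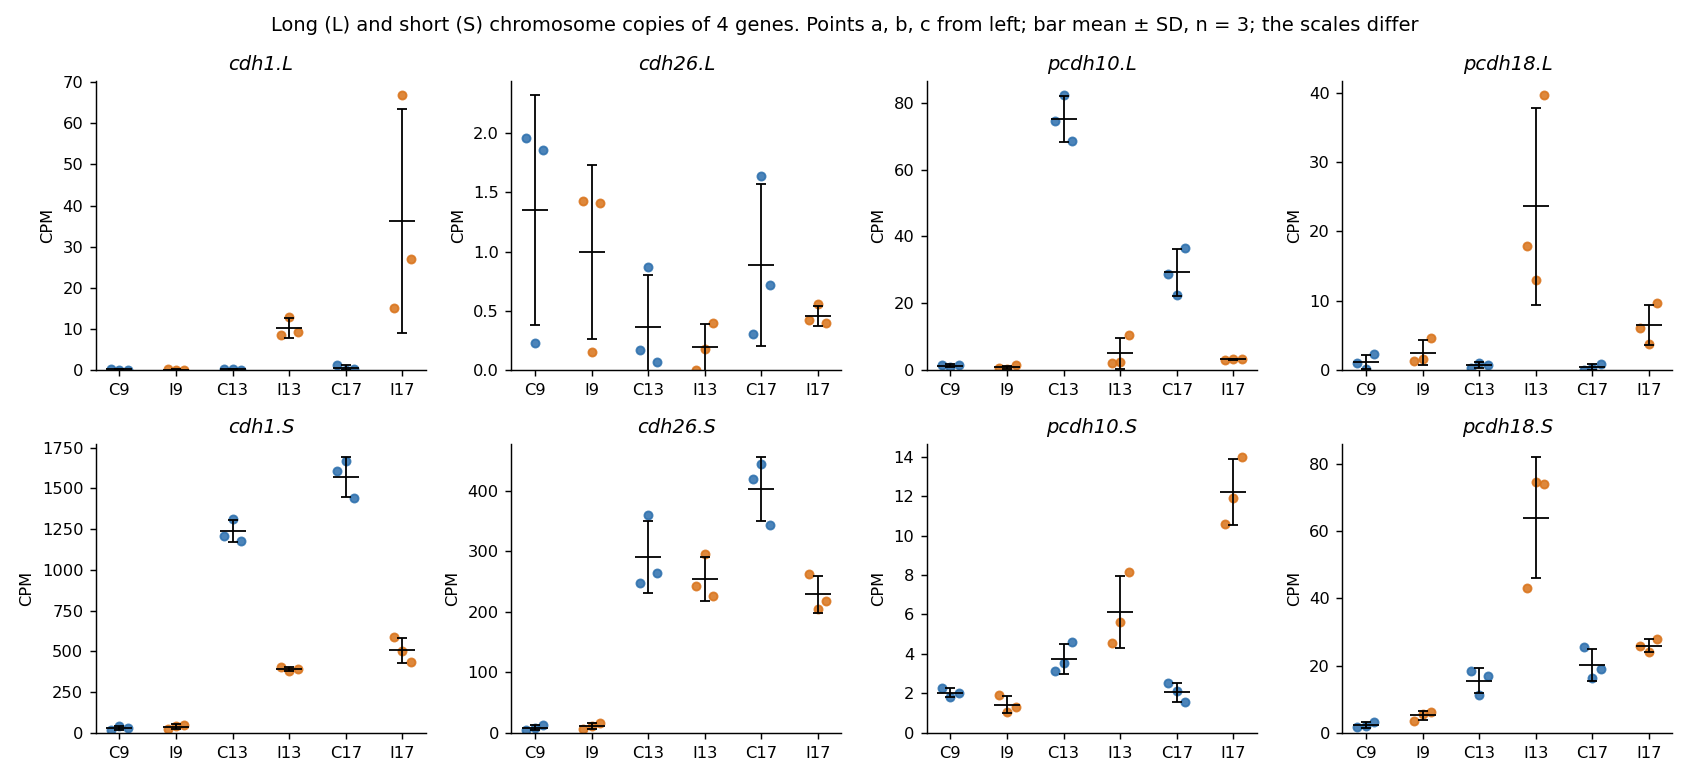
CPM in every library for the L copy (top) and S copy (bottom) of cdh1, cdh26, pcdh10 and pcdh18 (points a, b, c from left; bar mean ± SD, n = 3; C control, I induced, number the stage; scales differ between panels). The copies of cdh1 and pcdh10 differ in which kind of caps is higher at stage 17, and those of pcdh18 and cdh26 differ in level and course.

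The remaining protocadherins, pcdh9, pcdh12 and pcdh20, were at low levels, none above the 13.2 CPM of pcdh9.S. For pcdh9, the S copy gave the 1 call at the blastula stage: pcdh9.S stood at 6.19, 8.06 and 13.2 CPM in induced caps and at 0.798, 0.510 and 0.883 CPM in controls (3.63 ± 0.62, adjusted p = 0.013). The groups did not overlap, but the call was lost in a fit of that stage alone (adjusted p = 0.067) and without control library a, b or c or induced library c (adjusted p = 0.058 to 0.097). At stage 13 pcdh9.S was below 0.63 CPM in every library and did not pass (-0.48 ± 0.70, adjusted p = 0.65). At stage 17 it had 14 counts in induced caps and 2 in controls (ratio 5.91, 95% counting interval 1.36 to 53.6), with an adjusted p of 0.047, or 0.066 with the letter as a block and up to 0.17 without control library a or c or induced library a or c. This call was also lost with DESeq2 (adjusted p = 0.073), with no filter on low counts (0.058) and without single libraries of other stages (up to 0.056). The L copy changed sides: pcdh9.L held 1.94, 1.26 and 2.24 CPM in stage 13 controls and 0.392, 0.359 and 0.396 CPM in induced caps (-2.23 ± 0.65, adjusted p = 0.012), then 0.0613, 0.219 and 0.0650 CPM in stage 17 controls and 1.63, 0.354 and 1.49 CPM in induced caps (3.22 ± 0.73, adjusted p = 0.0019). The change between the stages was 5.45 ± 0.98 (adjusted p = 0.0030). Pcdh12, known from mammalian endothelium, passed for pcdh12.S at stage 17 (1.98 ± 0.68, adjusted p = 0.028), where induced caps held 0.785, 0.405 and 1.49 CPM and controls at most 0.260. Without induced library c the value was 1.39 (adjusted p = 0.18), and the call was also lost without induced library a or any control library (0.052 to 0.11). Neither copy of pcdh20 passed between the kinds of caps at any stage; pcdh20.S was lower than in the blastula in both (-1.59 ± 0.59 in stage 17 controls and -2.47 ± 0.61 in induced caps; the former was lost without blastula library a or stage 17 library b or c, adjusted p = 0.065 to 0.092).

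**Figure D5:**
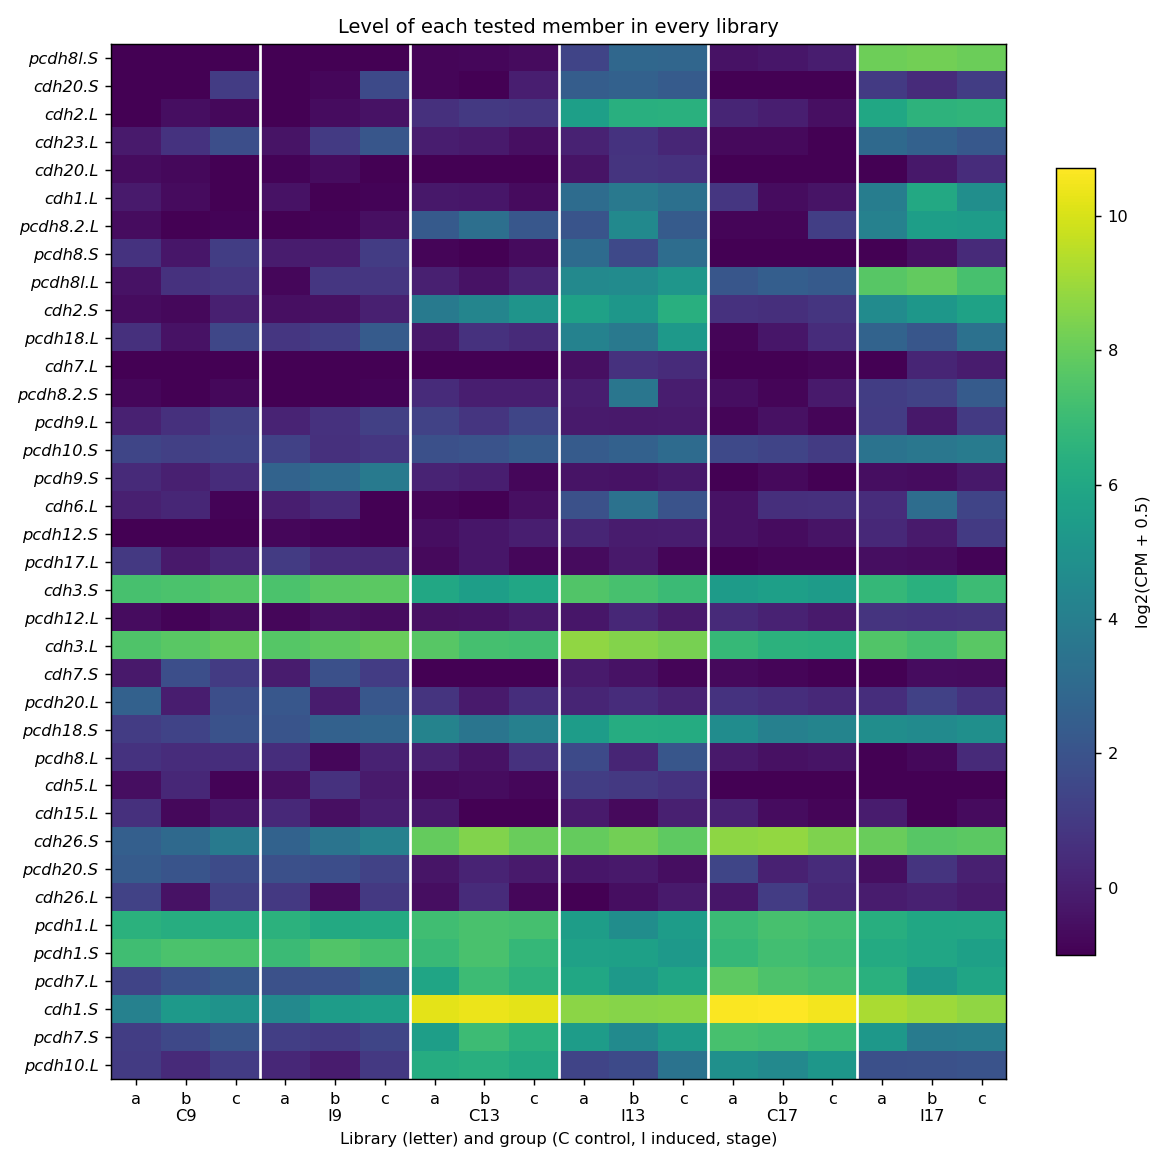
Level of the 37 tested members in each of the 18 libraries as log2(CPM + 0.5), one row per member and one column per library (C control, I induced, number the stage), in the order of the stage 17 induction effect. Rows at the top, such as pcdh8l.S and cdh2.L, are bright in induced caps of stages 13 or 17, rows at the bottom, such as cdh1.S and pcdh10.L, are brightest in controls, and pcdh9.S is brightest in stage 9 induced caps.

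For 16 genes, both copies were tested. Between the kinds of caps, the copies had the same call for 10 of the 16 at stage 13 and for 10 at stage 17. They were called in opposite directions for 1 at stage 13 (cdh1) and for 2 at stage 17 (cdh1 and pcdh10).

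Within each kind of caps fewer members moved between stages 13 and 17. In controls 2 rose and 7 fell, beside 20.1% and 19% of all genes. The 2 that rose were pcdh7.L (0.96 ± 0.33) and pcdh8l.L (3.26 ± 0.65), and cdh2.S was among those that fell. In induced caps 6 rose and 6 fell, beside 21% and 18.7%. The rises there included both copies of pcdh8l, cdh1.L, cdh23.L (2.86 ± 0.82) and pcdh10.S (0.99 ± 0.29), and the falls included both copies of cdh3 (-1.03 ± 0.18 and -0.52 ± 0.18) and of pcdh8. Some of these calls rest on single libraries. That for pcdh7.L was lost without control library a or c of stage 13 or a or b of stage 17 (adjusted p = 0.058 to 0.13). That for cdh1.L was lost without any of 5 of the 6 induced libraries (0.062 to 0.34), and that for pcdh10.S without library a or b of stage 13 or c of stage 17 (0.05 to 0.066). Those for cdh3.S and pcdh8.L were each lost without any of 4 induced libraries (up to 0.14). The induction effect itself rose from stage 9 to 13 for 8 members and fell for 5, beside 8.88% and 12.7%. From stage 13 to 17 it rose for 6 and fell for 1, beside 4.03% and 4.07%.

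The 24 untested members had 0 to 88 counts over the 18 libraries, and 18 of them had fewer than 30. Both copies of cdh19 had none. Those with 30 or more were cdh11.L, cdh11.S, cdh6.S, cdh16.L, cdh17.L and cdh18.S. The last 3 were blastula transcripts. Cdh18.S had 7, 12 and 2 counts in stage 9 controls and 3, 7 and 7 in stage 9 induced caps, then 1 count in all 12 later libraries. Cdh16.L, the kidney cadherin, came from letter a, with 31 of 31 counts in stage 9 controls and 23 of 24 in induced caps. One further untested member leaned to controls: cdh24.S had 5, 8 and 6 counts in stage 13 controls and 2 in all in induced caps (ratio 10.5, 95% counting interval 2.53 to 92.9).

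The proteins that work with cadherins were described from lists of known genes. Of 20 tested rows for adherens junction partners, 4 were higher and 8 lower in induced caps at stage 13, and 1 was higher and 14 lower at stage 17, with medians of -0.28 and -0.77 on the log2 scale. Of all genes tested, 18.9% were higher and 21.4% lower at stage 13, and 22.2% and 22.8% at stage 17. The epidermal markers were lower too, at 53900 ± 7820 CPM in stage 17 controls and 22300 ± 4810 in induced caps, and their part in these counts was not tested. Plakoglobin, jup.L, a catenin of adherens junctions and desmosomes, was lower at both stages (-2.20 ± 0.20 and -1.42 ± 0.20), as was the p120-family gene arvcf.S (-1.30 ± 0.15 and -1.45 ± 0.15). Beta-catenin differed less: ctnnb1.S was higher at stage 13 (0.44 ± 0.12, adjusted p = 0.0083) and did not pass at stage 17 (0.01 ± 0.12, adjusted p = 0.96). The nectins, adhesion receptors that assemble beside cadherins, split by gene, with nectin1.L lower (-3.03 ± 0.29 and -3.41 ± 0.30) and nectin3.L higher (1.37 ± 0.42 and 3.93 ± 0.48).

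Desmosomes are the strong epithelial junctions built on the desmosomal cadherins. Of 16 tested rows for their parts, 12 were lower in induced caps at stage 13 and 11 at stage 17, with 1 higher at each, beside 21.4% and 22.8% of all genes lower; medians were -1.5 and -1.01. The desmosomal cadherin dsg2.L stood at 628 CPM in stage 13 controls and 182 in induced caps (-1.79 ± 0.17), and the cytolinker periplakin, ppl.L, at 352 and 33.7 CPM (-3.38 ± 0.35). The 1 higher row was another desmosomal cadherin, dsc3.S, at 0.736 and 5.81 CPM (2.97 ± 0.37). The epidermal marker list was lower too, at 36200 ± 2430 CPM in stage 13 controls and 9250 ± 1070 in induced caps; its part in the difference was not tested.

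Of 16 tested rows for other members of the cadherin superfamily, 5 were higher and 4 lower at stage 13 and 5 of each at stage 17, not far from the shares of all genes (18.9% and 21.4%, then 22.2% and 22.8%). Dachsous, a giant cadherin of planar polarity, was higher in both copies (dchs1.L 3.94 ± 0.61 and 3.77 ± 0.55; dchs1.S 3.34 ± 0.64 and 3.53 ± 0.63). The atypical cadherin fat2.S was lower (-1.61 ± 0.36 and -2.76 ± 0.38), and cdhr4.L went from 22.2 CPM in stage 17 controls to 0.108 in induced caps (-7.51 ± 1.08). Multiciliated cell markers moved the same way, at 1300 ± 164 CPM in stage 17 controls and 75.5 ± 10.7 in induced caps, and their part in the cdhr4.L result was not tested.

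Of 22 tested rows for transcription factors of crest and of epithelial-mesenchymal transition, 19 were higher and 2 lower at stage 13, and 20 were higher and 0 lower at stage 17, with medians of 6.33 and 6.92; of all genes, 18.9% and 22.2% were higher at these stages. The cadherin repressors snai2.L (6.61 ± 0.39 and 6.38 ± 0.38), zeb2.L (10.58 ± 0.95 and 9.47 ± 0.86) and twist1.L (2.99 ± 0.47 and 8.16 ± 0.56) were among them. The 2 lower at stage 13 were the copies of ets1. The neural crest marker list was higher too, at 311 ± 13.7 CPM in stage 17 controls and 5880 ± 494 in induced caps. Its part in these counts was not tested, nor was any action of these factors on a cadherin. Among 14 tested rows for proteases that can cut cadherins, 6 were higher and 1 lower at stage 13, beside 18.9% and 21.4% of all genes. At stage 17, 2 were higher and 2 lower, no more than the shares of all genes (22.2% and 22.8%). The metalloproteinases mmp14.L (6.40 ± 0.53 and 3.3 ± 0.44) and adam33.L (2.33 ± 0.22 and 1.5 ± 0.21) were the 2 that were higher at both.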

How the data were processed

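Animal caps of Xenopus laevis were profiled by poly(A) RNA sequencing with a directional kit, per the labels' protocols. The authors deposited raw read counts per gene; fastp 0.23.2, STAR 2.6.0 and HTSeq 1.99.2 are named in the submitters' processing notes, while the sources used here do not give a build, annotation or strand setting, so reads may be split between near-identical copies or mixed with overlapping antisense genes. Column letters a, b and c take the place of replicate numbers: each column was matched to its group by treatment and stage, and the letters stand in no label. The 5 summary lines were set aside (no feature 10.2% to 12.8% of reads, not unique 10.3% to 12.2%). The 3 lamprey libraries were not analysed here.

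Counts were fitted with edgeR 4.0.16 in R 4.3.3: TMM scaling (factors 0.785 to 1.401), a filter on low counts by group, 1 robust quasi-likelihood fit of 6 group means over 18 libraries, two-sided tests and Benjamini-Hochberg adjustment over 24499 genes. The fit was tested on simulated data. CPM are counts scaled to a common library size with TMM. Intervals are at 95% and cover counting error only. An "at least" fold puts a floor of 3 counts in place of 0 in the lower group. It takes the count of the higher group as exact, so it is not a 95% lower bound. Same-letter libraries deviated together: after removing group means, r was 0.333 to 0.828 in 9 pairs of control and induced libraries of 1 stage and 0.179 to 0.513 in 18 pairs between stages. The main fit has no term for the letter, so its values and calls ignore this pairing. A fit with the letter as a block is an alternative, given beside some of the calls it changes. Alternatives were DESeq2 1.42.0, other scalings, no filter, the block, single stages, and each library left out.

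Members were found by name. The text names cadherins and protocadherins known in frog ectoderm, mesoderm, neural plate and crest, the 5 most abundant members of each group, and up to 5 higher and 5 lower members with the largest changes in each comparison. The untested members with most counts, and cdh24.S, were named after their values were seen. Members and gene lists were chosen with earlier results of these data known. Neighbouring genes are from RefSeq Xenopus_laevis_v10.1.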

Additional observations from a re-analysis of the deposited data

Results flagged for a closer look

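For 19 members the effect of induction differed between stages by the interaction test of the edgeR fit, which compares log2 fold changes (induced over control) of 2 stages directly; the values below are the later effect minus the earlier one. From stage 9 to 13 the effect rose for cdh1.L by 6.18, cdh2.L by 5.34, cdh3.L by 1.07, cdh3.S by 1.24 and cdh6.L by 5.79. It also rose for pcdh18.L by 3.91, pcdh8.S by 6.84 and pcdh8l.L by 5.82. Over the same interval the change was -2.02 for cdh1.S, -1.89 for pcdh1.L, -1.46 for pcdh1.S, -3.19 for pcdh10.L and -4.11 for pcdh9.S. The last came from the blastula difference of pcdh9.S, since neither kind of caps held more than 0.63 CPM at stage 13. Where a stage 13 control group held only a few counts, as for pcdh8.S with 3, the size of the change depends on the fit.

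From stage 13 to 17 the effect rose for cdh2.S by 3.75, cdh23.L by 4.92, pcdh1.L by 0.91, pcdh10.S by 1.85, pcdh8.2.L by 5.02 and pcdh9.L by 5.45, and for pcdh18.S the change was -1.69. For pcdh1.L this means a smaller deficit in induced caps at stage 17. Its adjusted p of 0.047 rose to between 0.051 and 0.12 under 14 of the alternatives. Single libraries also ended other calls: cdh1.L without control library a of stage 9 (adjusted p = 0.16), cdh2.L without control library b of stage 9 (0.14), pcdh18.L without control library c of stage 9 (0.066) and pcdh18.S without control library a of stage 17 (0.057). For cdh6.L this held for 4 libraries (control b of stage 9, control a and b and induced b of stage 13), for pcdh8.2.L for 6 and for cdh23.L for 9.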

How the results depend on the processing

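Of 188 calls of named members, each recomputed under up to 26 alternatives, 131 kept their direction and stayed under an adjusted p of 0.05 in every one, and 57 were lost in at least 1. The sign of 1 value changed: pcdh8.2.S at stage 13 went to -0.39 without induced library b, in a range up to 3.34 with other libraries left out. The 1 member called at stage 9 became 0 in a fit of that stage alone and 2 with the replicate block added, and 0 to 1 with a library left out. With a replicate block within each stage, a fit added after seeing the data, the members whose induction effect changed went from 13 to 21 between stages 9 and 13 and from 7 to 11 between stages 13 and 17. Leaving out 1 library gave 11 to 14 and 3 to 7 for these; the 3 came without control library a of stage 17, and the count was 4 without control library b of stage 13 or 17 or induced library b of stage 17. Between control stages 13 and 17 the 9 members became 5 without control library b of stage 17, in a range of 5 to 11. Beyond the blocked values given beside results, the block changed no other count of members by more than 1.5 times, though it passed some members near the threshold, such as pcdh18.L from stage 13 to 17 in induced caps (-1.78, adjusted p = 0.0037). Counting L copies alone moved the stage 17 shares: cdh1 to 0.118% in controls and 5.11% in induced caps, cdh2 to 0.0964% and 12.3%, and cdh3 to 20.9% and 26.4%. The L copy held 0.0354% of cdh1 counts in stage 17 controls and 6.89% in induced caps. Leaving out S copies thus takes nearly all cdh1 counts out of these shares and out of their total. Why the copies differ was not tested. Members at a few counts, such as cdh7, cdh11 and cdh20, are limited by depth.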
